A study of Mus musculus with 2 samples.

Results

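Scn4a, Clcn1, Atp1b1 and Atp1b2 are 4 of the 21938 protein-coding genes of the mouse annotation used here, and they encode a sodium channel, a chloride channel and subunits of the sodium pump. They were chosen by name, for their part in the electrical excitability of muscle. No measured value enters that rule, but earlier results of these data were known when the genes were chosen. For each gene, DNase I peaks and footprints of both libraries were collected within 1 kb of every annotated transcription start and from 20 kb before to 20 kb after the gene. DNase-seq reads the ends of the DNA fragments that DNase I cuts from nuclei, so a peak marks accessible chromatin and a footprint marks a short protected stretch within it. The tissue was gastrocnemius, the large calf muscle, from male mice of the strain B6CASTF1/J aged 25 days, an untreated cross with no engineered allele in the labels. The 1 group held 2 libraries, biological replicates 1 and 2, taken from biosamples that are described as different males but carry the same donor identifier. All values therefore describe 1 tissue, and differences between replicates measure the spread between these libraries, which may be technical.

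An action potential spreads along a muscle fibre when voltage-gated sodium channels open, and Scn4a encodes the pore-forming alpha subunit of the channel that does this in adult skeletal muscle. Clcn1 encodes the main chloride channel of the fibre membrane, which stabilises the resting potential, and its loss causes myotonia in mice and in humans. The sodium pump, the Na,K-ATPase, exports sodium and imports potassium after each volley of firing; its alpha subunit carries out the transport and its beta subunit, encoded here by Atp1b1 and Atp1b2, is needed for folding and delivery of the pump to the membrane.

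Sequences are shown for the promoters of Scn4a, Clcn1 and Atp1b1, where the comparison of the genes begins, and for 3 regions outside the 4 promoters that were accessible in both libraries. They are given 5′ to 3′ on the strand of the gene, from build GRCm38 (mm10), and promoters are the 250 bases before the start in the RefSeq table, which held 3 of the 4 genes. Regions are the 200 bases around the centre of the replicate 1 peak. Capitals mark bases that lay in a footprint of both libraries, so a sequence without capitals had no such base.
Scn4a promoter, chr11:106349391-106349640, minus strand: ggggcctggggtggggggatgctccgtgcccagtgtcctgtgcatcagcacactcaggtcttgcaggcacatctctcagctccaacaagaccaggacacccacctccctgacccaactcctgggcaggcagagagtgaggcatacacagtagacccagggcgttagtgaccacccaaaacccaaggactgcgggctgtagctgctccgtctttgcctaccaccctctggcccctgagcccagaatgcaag
Clcn1 promoter, chr6:42286435-42286684, plus strand: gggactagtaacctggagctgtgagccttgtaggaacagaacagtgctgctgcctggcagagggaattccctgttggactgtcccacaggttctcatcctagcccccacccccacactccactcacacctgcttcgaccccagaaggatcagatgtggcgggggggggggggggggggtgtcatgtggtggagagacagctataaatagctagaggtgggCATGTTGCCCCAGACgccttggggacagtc
Atp1b1 promoter, chr1:164458356-164458605, minus strand: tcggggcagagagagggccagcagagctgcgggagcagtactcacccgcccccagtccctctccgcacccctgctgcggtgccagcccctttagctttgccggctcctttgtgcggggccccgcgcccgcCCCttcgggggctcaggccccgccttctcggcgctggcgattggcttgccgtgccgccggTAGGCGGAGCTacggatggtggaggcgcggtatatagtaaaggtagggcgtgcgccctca
Scn4a intronic region, chr11:106328631-106328830, minus strand: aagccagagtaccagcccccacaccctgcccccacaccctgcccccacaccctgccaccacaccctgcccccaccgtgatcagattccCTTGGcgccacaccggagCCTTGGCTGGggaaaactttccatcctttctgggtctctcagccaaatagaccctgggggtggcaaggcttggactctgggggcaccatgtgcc
Region upstream of Scn4a, chr11:106366451-106366650, minus strand: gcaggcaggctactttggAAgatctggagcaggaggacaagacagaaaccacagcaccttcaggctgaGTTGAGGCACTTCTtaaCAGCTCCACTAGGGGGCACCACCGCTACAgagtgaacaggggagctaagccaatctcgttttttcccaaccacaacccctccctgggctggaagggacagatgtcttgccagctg
Region upstream of Atp1b2, chr11:69614051-69614250, minus strand: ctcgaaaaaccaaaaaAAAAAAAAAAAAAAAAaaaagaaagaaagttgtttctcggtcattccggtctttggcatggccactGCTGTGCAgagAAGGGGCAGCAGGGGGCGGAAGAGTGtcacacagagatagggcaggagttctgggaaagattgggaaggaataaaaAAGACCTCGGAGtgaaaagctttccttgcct

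The replicate 1 library held 97499 peaks and 243784 footprints, and the replicate 2 library held 61664 peaks and 171389 footprints. A peak's strength is the deposited signal. Every signal was a whole multiple of 0.00592 in replicate 1 and of 0.00855 in replicate 2, as a count of tags scaled to 1000000 tags would be. No source states this unit; on this reading replicate 1 held 169 M tags and replicate 2 held 117 M. Intervals below are exact 95% intervals on these tag counts and cover counting error only. Of 10 marker genes of muscle fibres fixed as a list, 9 had a promoter peak in both libraries, against 0 of 5 leukocyte markers and 1 of 7 cardiomyocyte markers. Of the other lists, 5 of 5 endothelial, 2 of 5 Schwann cell, 4 of 5 neuronal and 2 of 5 B cell markers had a promoter peak in both libraries. Kidney epithelium, a tissue outside muscle, had 0 of 5. Over all protein-coding genes the share was 63.0%, so a peak at a marker does not by itself show that the cell type was present.

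Clcn1, Atp1b1 and Atp1b2 had a peak within 1 kb of an annotated start in both libraries, and Scn4a had none in either. In all, 3 of the 4 genes had a promoter peak in both libraries, where 63.0% of the 21938 protein-coding genes did (66.5% in replicate 1 and 64.2% in replicate 2), so the count is near the background. No promoter peak in either library, as at Scn4a, was found at 32.3% of genes. The signals of the 3 promoters were low among promoters with a peak: 1.37 and 0.957 for Clcn1, 1.63 and 1.57 for Atp1b1, and 2.26 and 2.55 for Atp1b2 in replicates 1 and 2, against a median over genes of 3.57 and 3.43. The order Clcn1, Atp1b1, Atp1b2, from low to high, was the same in both libraries. The counting intervals of Clcn1 and Atp1b1 overlapped in replicate 1, at 1.20 to 1.55 and 1.44 to 1.83, and did not in replicate 2, at 0.788 to 1.15 and 1.35 to 1.82. Atp1b2 lay above both in both libraries, with intervals of 2.04 to 2.50 and 2.27 to 2.85. In whole muscle, fewer cells of a type with an open promoter and a less open promoter in each cell cannot be told apart.

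**Figure D1:**
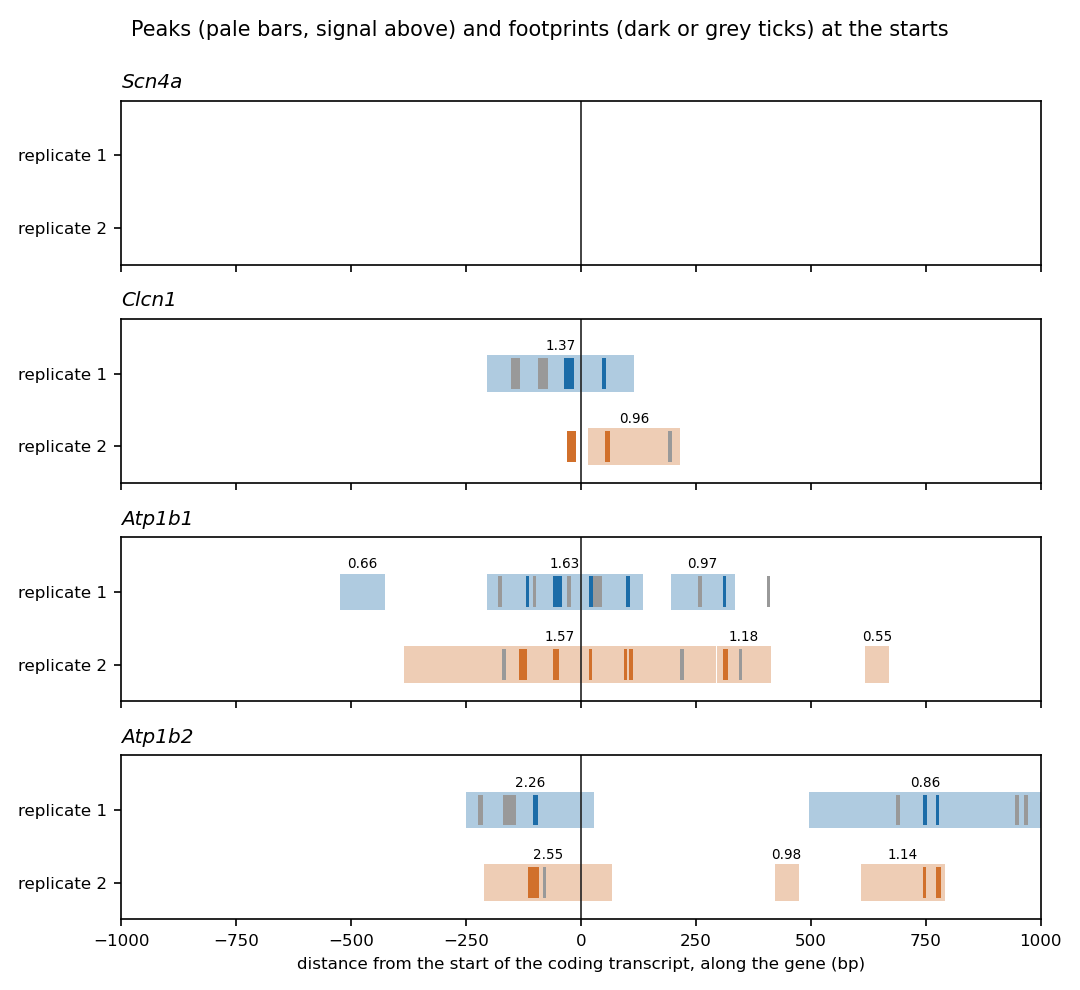
Peaks and footprints in the 1000 bp on either side of the start of the coding transcript of each gene, with replicate 1 above replicate 2; pale bars are peaks with their signal printed above, dark ticks are footprints that overlap one of the other library, and grey ticks are footprints that do not. Scn4a is empty in both libraries, and the Clcn1 peaks of the libraries lie side by side with 100 bp in common.

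Scn4a, on the minus strand of chromosome 11 (106318592 to 106353288, 34.7 kb), had peaks inside the gene and none at its starts. Its 2 annotated starts, that of the coding transcript at 106349389 and that of a noncoding transcript at 106353288, had 0 peaks and 0 footprints within 1 kb in either library. The 4002 bp searched also held 0 positions with a false discovery rate (q) below 0.05, the limit of the deposited lists, so no cutting above the lists' threshold was detectable at this depth. A footprint within 1 kb of a start was found at 64.9% of protein-coding genes in replicate 1 and 62.7% in replicate 2. The nearest peak to the coding start lay upstream of it, within the noncoding transcript (106350961 to 106351180), and had a signal of 1.18 in replicate 1 with no peak in replicate 2.

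Within the gene and 20 kb on either side, Scn4a had 21 peaks in replicate 1 and 6 in replicate 2. The median for the 5484 genes of the same length class (17428 to 45110 bp) was 5 and 3 peaks, and the counts lay at percentiles 99.6 and 77.3 of that class. The libraries thus differed more here than at the other 3 genes, which had 6 and 5, 4 and 4, and 12 and 11 peaks. Of the 21 peaks of replicate 1, 5 overlapped a peak of replicate 2 and 16 did not. The 16 had signals of 0.225 to 1.46 with a median of 0.606, and 0 of the 16 held a position listed below a q of 0.05 in replicate 2. Of these, 5 had a signal above the weakest peak of replicate 2 in the window, 0.949. Replicate 1 also had the larger number of tags and of peaks over the whole genome. Among as many of its strongest peaks as replicate 2 has in all, a setting chosen after seeing the data, replicate 1 had 14 peaks in the window, against 6 in replicate 2. On the stricter lists the counts were 15 in replicate 1 and 2 in replicate 2. Neither setting equalises the tags, and the stricter lists hold 61099 and 36573 peaks over the genome. Whether depth accounts for the difference was not tested.

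The 16 replicate 1 peaks included 6 on exons of Scn4a and 7 in its introns. Those on exons were weak, at 0.225 to 0.361, and lay in the last part of the gene. The introns held 4 of the 5 stronger ones, at 1.22 (106334095 to 106334399), 1.18 (106350961 to 106351180), 1.01 (106341152 to 106341320) and 0.958 (106338102 to 106338315), and the other lay at the start of Prr29 with 1.46. At 1 intron the libraries had neighbouring peaks that did not overlap, with 0.887 in replicate 1 (106332464 to 106332680) and 0.949 in replicate 2 (106332721 to 106332868).

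The intronic region printed above was accessible in both libraries, and the ratio between them lay within counting error. It lay 24.6 kb into the gene (106328601 to 106328860 in replicate 1) and had a signal of 1.30 in replicate 1 and 1.19 in replicate 2, or 219 and 139 tags. The log2 ratio of replicate 1 over replicate 2 was 0.12 (interval -0.19 to 0.44). Its lowest q was 3.11e-68 in replicate 1, the lowest of the window, and 4.61e-04 in replicate 2, where the lowest of the window was 4.15e-08 at another peak. The q did not follow signal here, since the peak with the highest signal of the window in replicate 1, 2.85, had 8.09e-25. The intronic region held 2 footprints that overlapped between the libraries, and the longer common stretch was 10 bp.

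A further 3 shared peaks of the Scn4a window stood at promoters of its neighbours. The strongest of the window (106366461 to 106366640 in replicate 1), within 1 kb of a start of Prr29, had 2.85 and 2.57 in replicates 1 and 2, and a second Prr29 peak (106365441 to 106365700) had 1.67 and 1.52. The peak at Gh, the growth hormone gene (106302761 to 106302920), had 0.941 and 1.03. Cd79b, a B cell receptor component that lies between Scn4a and Gh, had no promoter peak in either library. Across the 5 shared peaks of the window, 0 had a ratio between libraries whose interval left out 0.

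**Figure D2:**
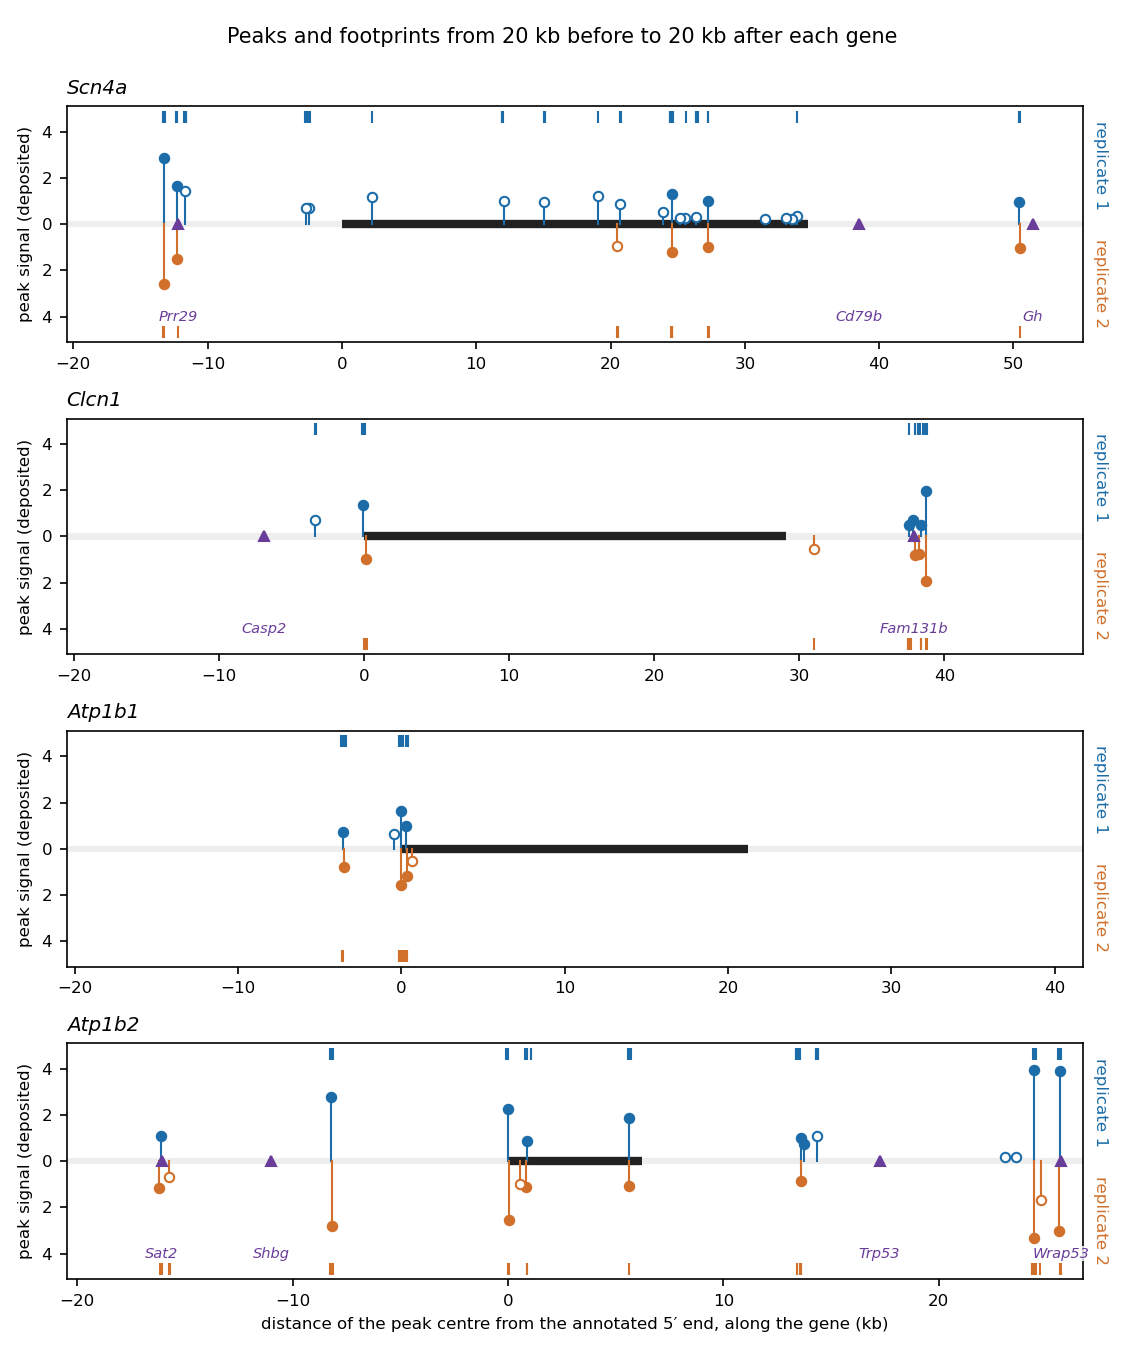
Peak signal, as deposited, by distance of the peak centre from the annotated 5′ end of each gene in kb, with replicate 1 drawn upward and replicate 2 downward; filled circles overlap a peak of the other library, open circles do not, black bars are the genes, ticks at the edges are footprints and triangles are the nearest starts of other protein-coding genes. Scn4a has a row of open circles along the gene in replicate 1, while Atp1b1 has peaks around its start and at 1 place before it.

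Clcn1, on the plus strand of chromosome 6 (42286685 to 42315756, 29.1 kb), had its accessibility at the start, and its strongest promoter peak differed between the libraries beyond counting error, which those of Atp1b1 and Atp1b2 did not. It had 7 annotated starts, and the peaks lay at the 5′ group of these. The promoter signal was 1.37 in replicate 1 (231 tags) and 0.957 in replicate 2 (112 tags), a mean of 1.16 ± 0.289 (SD, n = 2) and a log2 ratio of 0.51 (interval 0.18 to 0.85). That ratio lay between the 10th and 90th percentiles of all overlapping pairs of the genome, -0.73 and 0.64, so a difference of this size was not unusual. The intervals of the libraries did not overlap, since replicate 1 ran from 1.20 to 1.55 and replicate 2 from 0.788 to 1.15. The peaks also covered different bases, from 42286481 to 42286800 in replicate 1 and from 42286701 to 42286900 in replicate 2, with 100 bp in common. On the stricter of the deposited lists the promoter peak of Clcn1 stood in replicate 1 and not in replicate 2. Its percentile among promoters with a peak was 23.1 in replicate 1 and 12.0 in replicate 2.

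The Clcn1 promoter held 4 footprints in replicate 1 and 3 in replicate 2 within 1 kb of a start, and 2 in each library overlapped. The longer of the 2 lay just before the start, with 15 bp in common, printed in capitals above. In replicate 2 this footprint lay outside the peak of its own library. Outside the promoter Clcn1 had 1 distal peak in each library and 0 shared distal peaks. They were a peak 3.36 kb before the gene with 0.733 in replicate 1 and a peak after the gene (42317563 to 42317763) with 0.530 in replicate 2. The remaining peaks of the window belonged to the promoter of Fam131b, the strongest of them with 1.99 and 1.93 (42325321 to 42325520 in both libraries). Casp2, which encodes a caspase, has several annotated starts, the nearest of them 6.88 kb before Clcn1. Its highest promoter signal over all its starts, 9.94 and 5.65, came from peaks outside the Clcn1 window.

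The bases before the Clcn1 start held a match to the MEF2 site, the element bound by a family of muscle transcription factors, that began 51 bases before the start and overlapped the TATA box TATAAA at 50 bases before it. A MEF2 match was found in 2.92% of all 32851 promoters of the RefSeq table and a TATAAA in 12.4%, counted on both strands of 250 bases. The same stretch held 3 E-boxes (CANNTG), at 125, 101 and 69 bases before the start, where 66.2% of promoters hold at least 1. The E-box at 69 bases overlapped a RUNX element (TGTGGT, in 14.0% of promoters) and a CACCC box (CCACCC, in 28.1%) lay at 145 bases. The steroid receptor element TGTTCT, in 16.1% of promoters, lay at 213 bases. None of these 8 matches fell in bases footprinted in both libraries, though the CACCC box lay in a footprint of replicate 1 (42286533 to 42286551). The replicate 2 peak began at 42286701, after the searched bases, which limits what that library could show here. In the Scn4a promoter the search found CCACCC alone, at 242, 81 and 32 bases before the start. The search covered 18 motifs, and a match is a description of letters only.

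Atp1b1, on the minus strand of chromosome 1 (164437109 to 164458355, 21.2 kb), had few peaks, and its strongest peak was close between the libraries. It had 4 peaks in each library, 3 of which overlapped in each, and 0 distal peaks in either. The promoter signal was 1.63 in replicate 1 (275 tags) and 1.57 in replicate 2 (184 tags), a mean of 1.60 ± 0.0385 (SD, n = 2) and a log2 ratio of 0.05 (interval -0.23 to 0.33). Its peaks spanned the start, from 164458221 to 164458560 in replicate 1 and from 164458061 to 164458740 in replicate 2. A weaker replicate 1 peak followed in the first exon (164458021 to 164458160), with 0.970. It overlapped a replicate 2 peak of 1.18 by 40 bp (log2 ratio -0.28, interval -0.62 to 0.06) and the replicate 2 peak over the start, of 1.57, by 100 bp (log2 ratio -0.70, interval -1.01 to -0.39). Outside the promoter, the one shared peak lay 3.56 kb before the gene (164461721 to 164462100 in replicate 1), at the start of the noncoding gene Gm32391, with 0.745 and 0.803.

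The starts of Atp1b1 held the most footprints of the 4 genes in both libraries. Within 1 kb of a start there were 11 footprints in replicate 1 and 9 in replicate 2, at percentiles 85.2 and 73.7 of its length class, and 5 and 6 of them overlapped one of the other library. A footprint that overlapped between libraries was found near 57.9% of protein-coding genes. In the printed sequence 11 bp were common to both libraries at about 53 bases before the start, and a GC box (GGGCGG) at 124 bases had 2 of its 6 bases in the other stretch. GGGCGG was found in 32.7% of promoters and stood a second time at 205 bases, and a CCAAT box (in 33.8%) stood at 81 bases before the start. No protein-coding neighbour starts in the window of Atp1b1.

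Atp1b2, on the minus strand of chromosome 11 (69599736 to 69605942, 6.21 kb), had the strongest promoter of the 4 and the most shared peaks around it. The promoter signal was 2.26 in replicate 1 (382 tags) and 2.55 in replicate 2 (298 tags), a mean of 2.40 ± 0.203 (SD, n = 2) and a log2 ratio of -0.17 (interval -0.39 to 0.05). Its peaks ran from 69605801 to 69606080 in replicate 1 and from 69605761 to 69606040 in replicate 2. A second peak in the promoter window, over coding exon and intron, had 0.858 in replicate 1 and 1.14 in replicate 2 (log2 ratio -0.41, interval -0.76 to -0.06). Within 1 kb of a start Atp1b2 had 8 footprints in replicate 1 and 4 in replicate 2, and 3 in each overlapped.

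Over the gene and 20 kb on either side there were 12 peaks in replicate 1 and 11 in replicate 2, where the median of the 5485 genes of its length class (57 to 6520 bp) was 2 and 1. The counts lay at percentiles 96.3 and 95.4 of the class. They include promoter peaks of the neighbours Trp53, Wrap53 and Sat2, and the class was matched on gene length and not on neighbouring starts. Atp1b2 had 4 shared distal peaks in each library, and 1 of the 4 genes thus had 3 or more, where 7.46% of genes of its length class and 16.6% of all genes did. In replicate 1 the 4 peaks lay at 3 places, since 2 of them overlapped the same replicate 2 peak. In replicate 2 the 4 included a peak near Trp53 (69581421 to 69581620, 3.34) whose replicate 1 partner reached into the 1 kb flank of a start and was counted as a promoter peak. On the stricter lists 1 distal peak of Atp1b2 was shared, which ends the call.

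Among peaks that were distal and shared in both libraries, the strongest of the 4 genes was the printed region 8.21 kb before Atp1b2 (69614061 to 69614240 in replicate 1), with 2.77 in replicate 1 and 2.79 in replicate 2 (log2 ratio -0.01, interval -0.22 to 0.19). It was stronger than the Atp1b2 promoter in both libraries, though in replicate 2 the intervals overlapped (2.50 to 3.11 at the region and 2.27 to 2.85 at the promoter). It held 4 footprints in replicate 1 and 3 in replicate 2, all of which overlapped one of the other library. The central one held a GC box with all 6 bases in the common stretch, an element present in 12.4% of 26234 shared distal peaks. A run of adenines at one end of the region also lay in footprints of both libraries.

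At the other end of Atp1b2 a peak in the 3′ untranslated exon (69600201 to 69600420 in replicate 1) had 1.85 in replicate 1 and 1.07 in replicate 2. Its log2 ratio of 0.79 (interval 0.49 to 1.11) was the highest among the shared pairs of the 4 genes. Beyond the gene a shared distal region (69591981 to 69592720 in replicate 1) had 0.988 and 0.872. The neighbours Trp53 and Wrap53 share a promoter, whose highest signal was 7.31 and 7.38, from peaks just outside the window. Inside the window no peak exceeded 3.96 in replicate 1 or 3.34 in replicate 2. Sat2 had 1.07 and 1.16. Shbg, the gene for sex hormone binding globulin, had no promoter peak in either library.

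Across the windows of all 4 genes, 22 of 43 peaks of replicate 1 (51.2%) and 20 of 26 of replicate 2 (76.9%) overlapped a peak of the other library. Over all peaks the shares were 51.0% and 79.7%, so the shares pooled over the 4 windows were close to those of the genome. The single windows were not close to it in replicate 1. There 5 of 21 peaks (23.8%) were shared at Scn4a. The counts were 5 of 6 at Clcn1, 3 of 4 at Atp1b1 and 9 of 12 at Atp1b2. In replicate 2 the shares of the single windows ran from 72.7% at Atp1b2 to 83.3% at Scn4a. The 22 and 20 peaks made 25 overlapping pairs with a median log2 ratio of replicate 1 over replicate 2 of -0.11 and a range of -0.74 to 0.79. Over all 52480 pairs of the genome the median was -0.03, with 10th and 90th percentiles of -0.73 and 0.64. Counting intervals left out 0 at 9 of the 25 pairs, 4 above 0 and 5 below. This share was not computed over all pairs of the genome, so the count has no background. The 4 above were the Clcn1 promoter, the Atp1b2 3′ exon and the pair of peaks at the far end of the Atp1b2 window, near Trp53. Of the 5 below, 3 lay at the Fam131b promoter, where short replicate 1 peaks overlapped wide replicate 2 peaks and the same peaks recurred. The others were the Atp1b1 first exon peak against the peak over the start, and the second peak of the Atp1b2 promoter window.

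**Figure D3:**
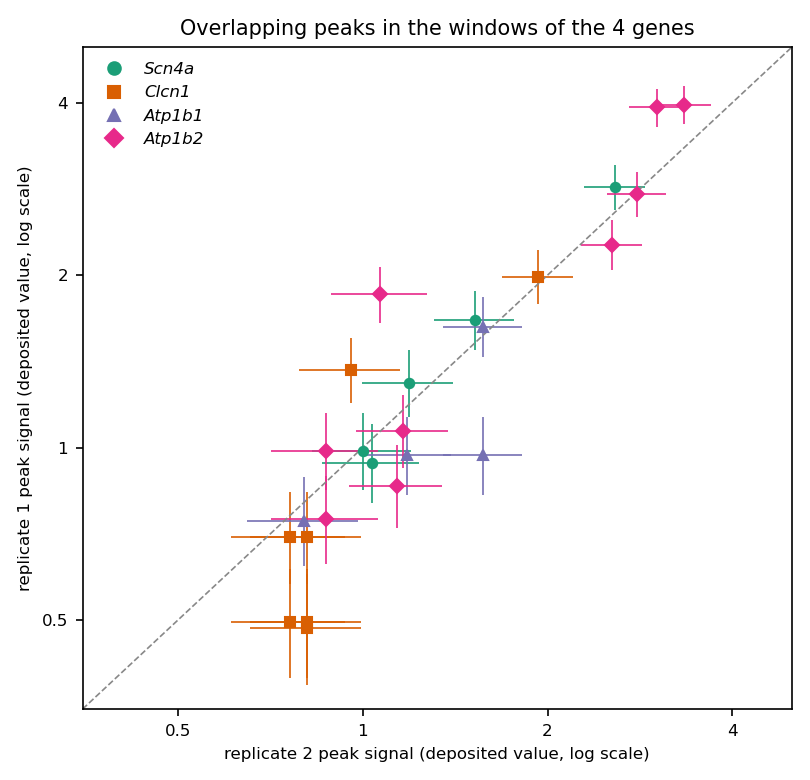
Signal in replicate 1 against signal in replicate 2 for the 25 overlapping pairs of peaks in the windows of the 4 genes, on log scales, with exact 95% counting intervals as bars and equality as the dashed line. The Clcn1 promoter (1.37 and 0.957) and the Atp1b2 3′ exon (1.85 and 1.07) stand above the line, and a peak that overlaps 2 peaks of the other library appears more than once.

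A smaller share of footprints than of peaks overlapped between the libraries. Of 106 footprints in replicate 1 and 65 in replicate 2, 31 in each (29.2% and 47.7%) overlapped one of the other library, where 36.0% and 52.2% of all footprints did. They made 33 pairs, of which 16 had at least 10 bp in common and 3 had the same edges. Scn4a had 40 and 14 footprints with 8 shared in each library, Clcn1 had 16 and 13 with 4 shared in each, Atp1b1 had 17 and 11 with 6 and 7 shared, and Atp1b2 had 33 and 27 with 13 and 12 shared. The medians of the length class of Scn4a, Clcn1 and Atp1b1 were 14 and 11 footprints with 6 shared, and those of the class of Atp1b2 were 6 and 4 with 2 shared. Of 30 pairs searched, 9 were overlapped by a motif match, by at least 1 base. A GC box covered by several pairs was counted in each. No share was computed for footprints elsewhere, so this count has no background. The CTCF core, an element of the factor that organises chromatin loops, lay in the printed region upstream of Scn4a. All 12 of its bases were inside the 29 bp common footprint. The core was found in 7.17% of promoters and 23.3% of shared distal peaks. The region lies within 1 kb of a start of Prr29 and is not a distal peak.

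Among genes of the same functions, listed as 45 genes in 7 families, 29 (64.4%) had a promoter peak in both libraries, close to the 63.0% of all genes. Scn4a was 1 of 4 sodium channel alpha subunit genes of 11 with no promoter peak in either library, and 5 had one in both. These 5 were weak, at means of 0.322 to 0.625, led by Scn2a (0.704 and 0.547) and Scn8a (0.449 and 0.513), channels best known from neurons. Of the beta subunits of the sodium channel, Scn4b (1.82 and 1.59) and Scn3b (0.988 and 0.897) had a promoter peak in both libraries, and Scn2b had none.

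Of 11 genes of chloride channels, exchangers and their accessory subunits, 9 were accessible at the promoter in both libraries, and Clcn1 had the lowest mean signal of these. The highest were Clcn6 (12.7 and 9.53) and Clcn4 (8.43 and 7.66), which encode exchangers of intracellular membranes. The pump beta subunits spanned a wide range. Atp1b3 had 12.6 and 12.3, Atp1b2 and Atp1b1 the values given above, and Atp1b4 a peak of 0.189 in replicate 1 with none in replicate 2.

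The FXYD proteins are small regulators of the pump, and 3 of 7 had a promoter peak in both libraries. Fxyd1, which encodes phospholemman, the form of heart and skeletal muscle, led with 6.28 and 4.67, followed by Fxyd5 (1.40 and 1.50) and Fxyd6 (0.822 and 1.15). Fxyd2, Fxyd3, Fxyd4 and Fxyd7 had no promoter peak in either library. All 4 scaffold genes listed with the sodium channel had one in both, led by Sptbn4, a spectrin (9.28 and 5.86).

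**Figure D4:**
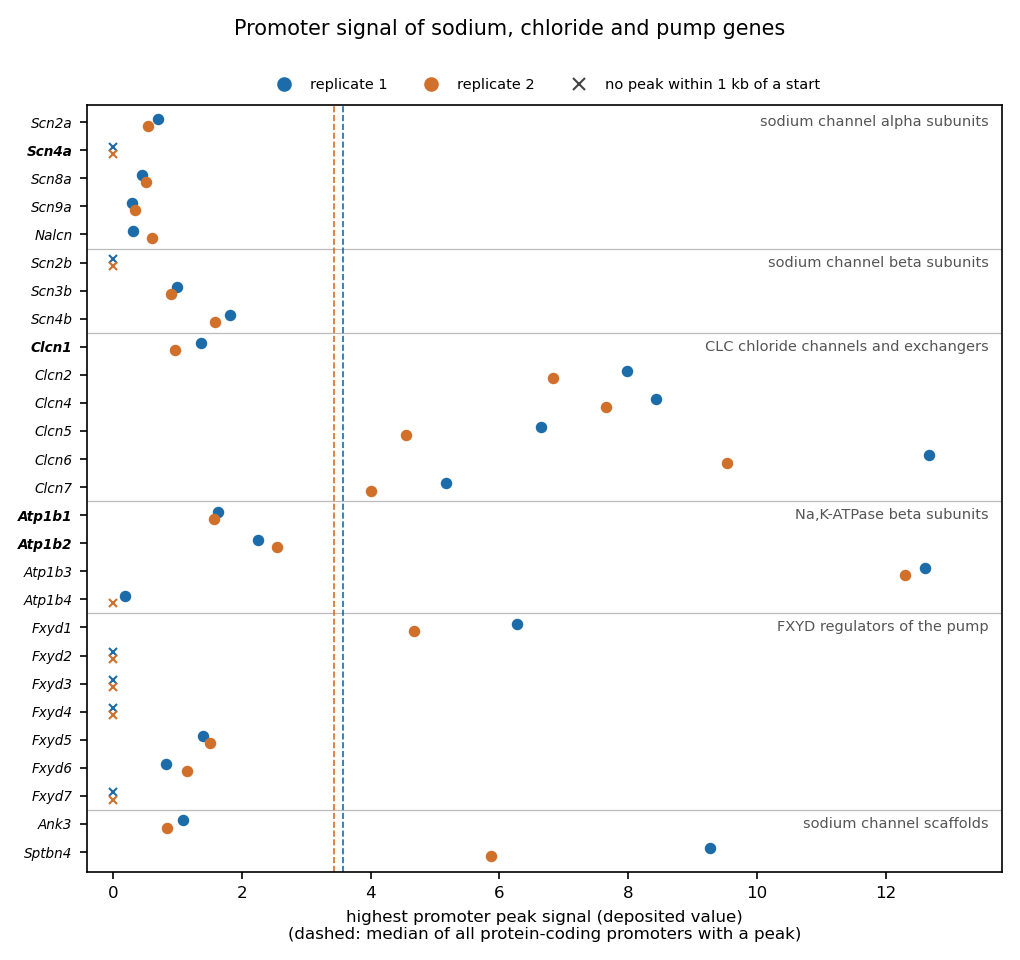
Highest promoter peak signal, as deposited, of the sodium channel, chloride channel, pump beta subunit, FXYD and scaffold genes named in the text, with replicate 1 and replicate 2 as separate points, crosses for genes without a promoter peak in that library and dashed lines at the medians of all protein-coding promoters with a peak (3.57 and 3.43). The members in bold lie left of the lines or, for Scn4a, have crosses in both libraries.

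The layout of peaks around the 5′ end was compared with the other 44 family genes over 40 bins of 1 kb by the Jaccard index, the share of bins open in either gene that were open in both, averaged over the libraries. Atp1b1 was most like Clcn5 (0.875), followed by Clcn1 and Ank3 at 0.667 each. Clcn1 was equally like Scn9a, Nalcn and Atp1b1, at 0.667 each. These values rest on 3 open bins in each library for Atp1b1, and on 3 and 1 for Clcn1. Scn4a had an index of 0.300 with Fxyd5, and Atp1b2 was most like Clcn2 (0.417) and Clcn7 (0.292).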

How the data were processed

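DNase-seq libraries of gastrocnemius from 2 biosamples, replicates 1 and 2 of 1 group per the labels, were used with mouse build mm10. The authors deposited, for each library, 2 peak lists whose signal column was used, a list of footprints whose other column holds the constant fraction 0.01, and q-values per position, listed only below 0.05. Per the notes deposited with the files, the lists were made library by library, without pooling. Not given in the sources used here are the aligner and the callers of peaks and footprints. Instrument models are named for replicate 1 only, so sequencing and biosample cannot be told apart.

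The longer peak list was used. Within 50 kb of the genes all of its peaks held a q below 0.05, and all peaks of the shorter list held one below 0.001. Signals were whole multiples of 1 step per library (all within 0.1 of a whole number), which was read as 1 tag. Starts came from GENCODE release M21, on GRCm38. A shared peak or footprint overlapped one of the other library by at least 1 bp, and a distal peak overlapped no 1 kb flank of a start of any of 55413 annotated genes. Percentiles of counts are within 4 classes of gene length of equal size, and promoter percentiles are among genes with a promoter peak. Intervals of signals are exact Poisson intervals and those of ratios are exact binomial (Clopper-Pearson) intervals. No test was made, since there is 1 group of 2 libraries, and the scripts were tested on simulated data. Named are the 4 genes, protein-coding neighbours with a start in the window, the leading 2 genes of each family, every gene of the smaller families by presence of a peak, the most alike family genes, promoter peaks and the 3 strongest shared distal peaks. Other peaks described in the windows were chosen after their values were seen. The genes, families, markers and motifs were chosen with earlier results of these data known. Some genes and 1 region are not reported here. Alternatives were other windows, overlaps, lists and single libraries. Python 3.11.15, pandas 2.3.3 and SciPy 1.17.1 were used.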

Additional observations from a re-analysis of the deposited data

How the results depend on the processing

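Of the 35 recomputed counts, 24 stayed within 1.5 times the reported count and 11 did not. Promoter signals recomputed with other windows or lists did not change, because the same peak was the highest each time. Clcn1 had no value on the stricter lists. Centring shifts every ratio by 1 small constant and moved each by less than its interval. These recomputed signals and ratios therefore show little on stability. With 2 libraries, the value of either cannot leave their SD, so it shows nothing on stability. The count of 22 shared peaks in the windows became 37 with 50 kb on either side and 10 on the stricter lists, the count of 31 shared footprints became 79 with 50 kb, and the 1 gene with 3 or more shared distal peaks became 2 with 50 kb, 0 on the stricter lists and 0 with the stronger 50% of peaks. Wider windows hold more features and stricter lists fewer by construction. With 1 library in place of both, peaks ranged from 26 to 43, footprints from 65 to 106, and 2 genes had 3 or more distal peaks. The 3 promoters with a peak in both libraries stayed 3 under other windows and became 2 on the stricter lists, without Clcn1. Keeping as many of the strongest replicate 1 peaks as replicate 2 has, a setting chosen after seeing the data, gave 20 shared peaks and 1 gene. No paired analysis was possible because there is 1 group. Counting error limits the weak peaks, the weakest of which held 31 tags.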
